A study of Mus musculus with 8 samples.

Results

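The matrix metalloproteinases expressed in the nervous system and their tissue inhibitors (TIMPs) were examined in the hippocampus of mice with a conditional knockout of synapse associated protein of 97KDa (SAP97, encoded by Dlg1). The set held 10 of the 25834 genes in the table, taken by symbol: the gelatinase gene Mmp2, the membrane-type genes Mmp14, Mmp15, Mmp16, Mmp17 and Mmp24, and the inhibitor genes Timp1, Timp2, Timp3 and Timp4. The set was picked because Mmp14 was higher in knockout libraries while most matrix genes were lower, so the differences between genotypes given here for its members are a description and carry no test. Of the 10 genes, 9 had enough reads to enter the comparison of genotypes and Timp1 did not.

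The series held 8 hippocampal RNA libraries, each from 1 male mouse, with 4 in the control group and 4 in the SAP97-cKO group. SAP97-cKO mice were Nestin-cre+/-; SAP97fl/fl, where the Nestin promoter drives Cre recombinase in neural progenitors, so that neurons and the glia derived from them lose the gene while cells of other origin, such as meningeal and vascular cells, largely keep it. Controls were littermates that carried Cre alone, the floxed alleles alone or neither, but the genotype behind each control library and the age of the sequenced mice are not stated in the labels or methods. The Nestin-cre line was on a C57Bl/6 background.

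Matrix metalloproteinases are zinc-dependent endopeptidases that are made as inactive precursors and cut extracellular matrix, growth factor precursors and cell surface proteins. The membrane-type enzymes are held at the cell surface, most by a transmembrane segment and the Mmp17 product by a lipid anchor, and can be activated inside the cell by furin-like convertases. TIMPs bind the active site and block it, and in the best known circuit the TIMP2 protein also bridges the Mmp14 product to the Mmp2 precursor, which is then cut to its active form. In the hippocampus these proteases are known for acting on perineuronal matrix and on synaptic adhesion proteins.

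Library totals ran from 37388177 to 37426572 counts, since the authors had resampled the reads to a near-equal number. Dlg1 had 4338 ± 336 normalized counts in controls and 2393 ± 470 in SAP97-cKO (mean ± SD, n = 4 each), and its reads were lower in all 4 knockout libraries. Normalized counts are the deposited counts scaled to a common library size by the TMM method. Neuron markers summed to 405761 to 446719 normalized counts in controls and 445328 to 500006 in SAP97-cKO. Choroid plexus markers, which come from tissue adjoining the hippocampus, summed to between 6815 and 265126 in controls and between 3933 and 90914 in SAP97-cKO. Summed markers of meningeal fibroblasts ran from 2619 to 4662 in controls and from 775 to 2060 in SAP97-cKO, without overlap. In whole tissue, fewer cells of a type and less RNA per cell cannot be told apart.

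The upstream sequences of Mmp14 and Timp3 are shown first because these were the 2 members whose counts did not overlap between genotypes. Each is the 250 bases before the RefSeq start on GRCm38.p6, written 5′ to 3′ on the strand of the gene, with the GC box (GGGCGG on either strand), the letters bound by SP-family transcription factors, in capitals. The Mmp14 sequence lies at chr14:54431348-54431597 on the plus strand and the Timp3 sequence at chr10:86300162-86300411, also on the plus strand. In the annotation used for gene positions Timp3 starts at chr10:86300372, before the RefSeq start. The end of its window, with its GC box, therefore lies inside the annotated gene.
Mmp14: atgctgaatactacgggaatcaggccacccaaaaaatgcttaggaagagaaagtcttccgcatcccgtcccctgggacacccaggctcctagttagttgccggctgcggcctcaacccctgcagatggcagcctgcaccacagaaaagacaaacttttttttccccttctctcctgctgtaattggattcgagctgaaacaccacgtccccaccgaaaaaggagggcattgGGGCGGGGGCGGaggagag
Timp3: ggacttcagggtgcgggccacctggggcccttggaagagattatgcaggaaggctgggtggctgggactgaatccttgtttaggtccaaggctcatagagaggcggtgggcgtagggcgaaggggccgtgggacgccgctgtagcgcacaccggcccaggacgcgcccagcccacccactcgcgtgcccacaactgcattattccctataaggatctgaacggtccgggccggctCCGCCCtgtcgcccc
The Mmp14 sequence held 2 GC boxes and 10 CpG dinucleotides at 55.2% GC, and the Timp3 sequence held 1 GC box and 18 CpG dinucleotides at 65.6% GC. Neither held the TATA motif TATAAA. RefSeq promoters were matched for 7 of the 10 members, and of these Mmp15, Mmp24, Timp1 and Timp2 also held a GC box, Timp4 held none, and none of the 7 held TATAAA. Across all 32851 mouse promoter sequences of this length, 32.7% held a GC box and 12.4% held TATAAA. Their median GC was 52.4%, while the 7 matched members ran from 53.6% for Timp4 to 79.2% for Mmp24. The shares were not matched for GC, so nothing is read from the difference. The window of Timp2 lay wholly inside its annotated gene, and the end of the window of Mmp15 ran into its gene, as for Timp3. These matches describe letters in a window and do not show binding.

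The abundance of the members was compared first, because levels between genes were not used to pick them. Levels were expressed as CPM per kilobase of exon, that is, TMM-scaled counts corrected for library size and exon length, and neighbours in the order of the medians were compared within each of the 8 libraries. Timp2 was the most abundant, with a median of 83.5 over the 8 libraries (range 48.1 to 121). Mmp17 followed at 42.8 (38.1 to 52.7), so the lipid-anchored enzyme was the most abundant protease of the set. Mmp24, a membrane-type enzyme known from neurons, had a median of 10.7 (9.51 to 12.7).

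Timp3, the inhibitor that stays bound to matrix, had a median of 9.04 on the same scale (7.15 to 13.5), and Timp4 had 7.06 (5.81 to 9.15). Mmp15, another transmembrane enzyme, had 4.79 (4.03 to 6.11). Mmp16 had 2.84 (2.26 to 3.09) and Mmp14 had 2.54 (2.05 to 3.44). The levels of these 5 genes lay below those of Timp2 and Mmp17 in all 8 libraries. Mmp2, the secreted gelatinase, had a median of 1.20 (0.747 to 2.22), and Timp1, an inhibitor that is inducible in injured tissue, had 0.227 (0.123 to 0.438).

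Of the 9 neighbouring pairs, 7 were separated beyond the spread between libraries, in an exact two-sided sign-flip permutation test over 8 libraries adjusted by Benjamini-Hochberg over the 9 pairs. The order was the same in all 8 libraries for 6 pairs, each with an adjusted p of 0.0117 in the exact test, whose smallest possible raw p is 0.00781. Among these, Timp2 exceeded Mmp17 by 1.78-fold, Mmp17 exceeded Mmp24 by 4.09-fold, and Mmp2 exceeded Timp1 by 5.41-fold on the scale per kilobase. Timp3 exceeded Timp4 in 6 of 8 libraries, by a log2 difference of 0.36 ± 0.41 (SD), with an adjusted p of 0.0402 in the exact test.

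The levels of 2 neighbouring pairs were not separated. Mmp24 was above Timp3 in 7 of 8 libraries, with a log2 difference of 0.20 ± 0.34 (SD) and an adjusted exact p of 0.141. Mmp16 was above Mmp14 in 4 of 8 libraries, with a log2 difference of 0.061 ± 0.21 (SD) and an adjusted exact p of 0.508. Mmp16 was above Mmp14 in 3 of 4 control libraries and in 1 of 4 SAP97-cKO libraries.

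**Figure D1:**
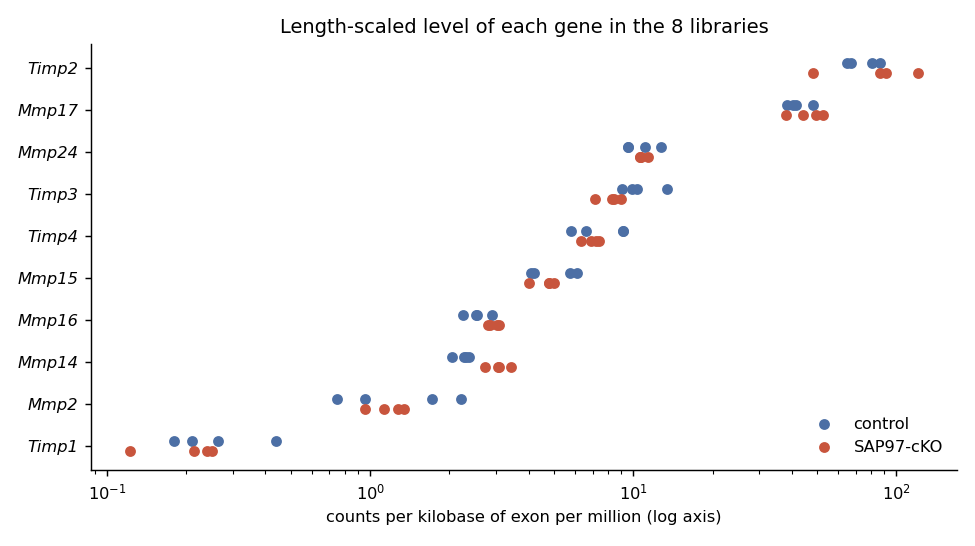
Levels of the 10 members as TMM-scaled CPM per kilobase of exon on a log axis, with 1 point per library and both genotypes shown. Timp2 and Mmp17 lie at the top with medians of 83.5 and 42.8, Timp1 lies at the bottom with 0.227, and the points of Mmp16 and Mmp14 lie over the same range.

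Summed over the 6 proteases, the level per kilobase ran from 57.3 to 69.2 in controls and from 61.0 to 75.3 in SAP97-cKO, and summed over the 4 inhibitors it ran from 84.5 to 105 in controls and from 64.1 to 136 in SAP97-cKO. Both sums overlapped between genotypes. Mmp17 made up 62.0% to 69.6% of the protease level in controls and 62.4% to 70.0% in SAP97-cKO. Timp2 made up 76.7% to 82.9% of the inhibitor level in controls and 75.0% to 88.6% in SAP97-cKO. Each family was therefore carried by 1 gene at the RNA level in both genotypes.

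Mmp14 encodes the best studied membrane-type enzyme, a collagenase that activates the Mmp2 precursor. It had 457, 528, 505 and 517 normalized counts in the 4 control libraries and 766, 689, 684 and 606 in the 4 SAP97-cKO libraries. All 4 knockout libraries lay above all 4 controls, and the lowest knockout value was in SAP97-cKO 4. The log2 fold change was 0.45 (SE 0.092), which is 1.37-fold, and 97.9% of the 16251 genes tested had a smaller log2 fold change.

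With an edgeR quasi-likelihood fit over all 16251 genes and the FDR of 0.25 used in the study, Mmp14 was the 1 member of the 9 tested that was called higher and 0 members were called lower. Its adjusted p in edgeR was 0.247, just under that threshold. The study's own list of differing genes does not hold Mmp14. Over all genes tested 0.0123% were called higher, 0.283% lower and 0.295% in either direction. Because the set was chosen on this comparison, nothing is read from that count. By limma-voom 1 member was called higher and 0 lower, where limma-voom called 2 genes higher and 48 lower, or 0.308% of those tested. By DESeq2 Mmp14 was called higher and Timp3 lower, where DESeq2 called 445 genes higher and 588 lower, or 6.36% of those tested. The call of Mmp14 was lost when any of 6 single libraries was left out, namely controls 2, 3 and 4 and SAP97-cKO 2, 3 and 4, while its log2 fold change stayed between 0.40 and 0.51.

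Timp3 encodes an inhibitor that blocks several ADAM proteases in addition to the matrix metalloproteinases. It had 3001, 4104, 3138 and 2768 normalized counts in controls and 2572, 2736, 2525 and 2178 in SAP97-cKO. The highest knockout value lay just below the lowest control value, and control 2 stood above the other controls. The means were 3253 ± 588 and 2503 ± 235 (SD, n = 4 each), with a log2 fold change of -0.38 (SE 0.12) that was not called by edgeR or limma-voom. It was called lower by DESeq2, and by edgeR with a replicate block or without control 1, and it was -0.25 without control 2. Timp3 and Mmp14 were the members whose groups did not overlap, 1 lower and 1 higher, against 3.47% and 2.78% of all genes tested and 6.25% in either direction.

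The meningeal fibroblast sum was lower in all 4 knockout libraries, as Timp3 was, and both were highest in control 2 and lowest in SAP97-cKO 4. The choroid plexus sum had the same highest and lowest libraries but overlapped between genotypes. Within controls, the order of Timp3 was that of the choroid plexus sum and not that of the fibroblast sum. When the mean log2 CPM of the meningeal fibroblast markers was entered as a covariate, the log2 fold change of Timp3 was -0.0024 (SE 0.18). The log2 fold change of Mmp14 in the same fit was 0.62 (SE 0.17) with an adjusted p of 0.999 in edgeR, against 0.45 (SE 0.092) without the covariate. The marker sums did not overlap between genotypes, so this fit can hardly separate the markers from genotype, and 0 genes were called in it. The values of Timp3 and Mmp14 are therefore not read as a contrast. All 13 fibroblast markers entered the comparison, 13 of 13 had a log2 fold change below 0 and 4 were called lower. Their part in the values of Timp3 was not tested.

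Reads of Mmp14 as a percentage of reads of Timp3 in the same library, a ratio that needs no scaling between libraries, were 15.2%, 12.9%, 16.1% and 18.7% in controls. They were 29.8%, 25.2%, 27.1% and 27.8% in SAP97-cKO, above every control. That separation was fixed in advance and adds no evidence, since Mmp14 was higher and Timp3 lower in every knockout library than in every control. Against Timp2 the corresponding percentages were 3.89%, 5.40%, 5.35% and 4.12% in controls and 10.9%, 3.91%, 5.42% and 4.58% in SAP97-cKO. The high value in SAP97-cKO 1 came with the lowest Timp2 count of the series, and the other knockout libraries lay over the range of the controls or close to it.

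**Figure D2:**
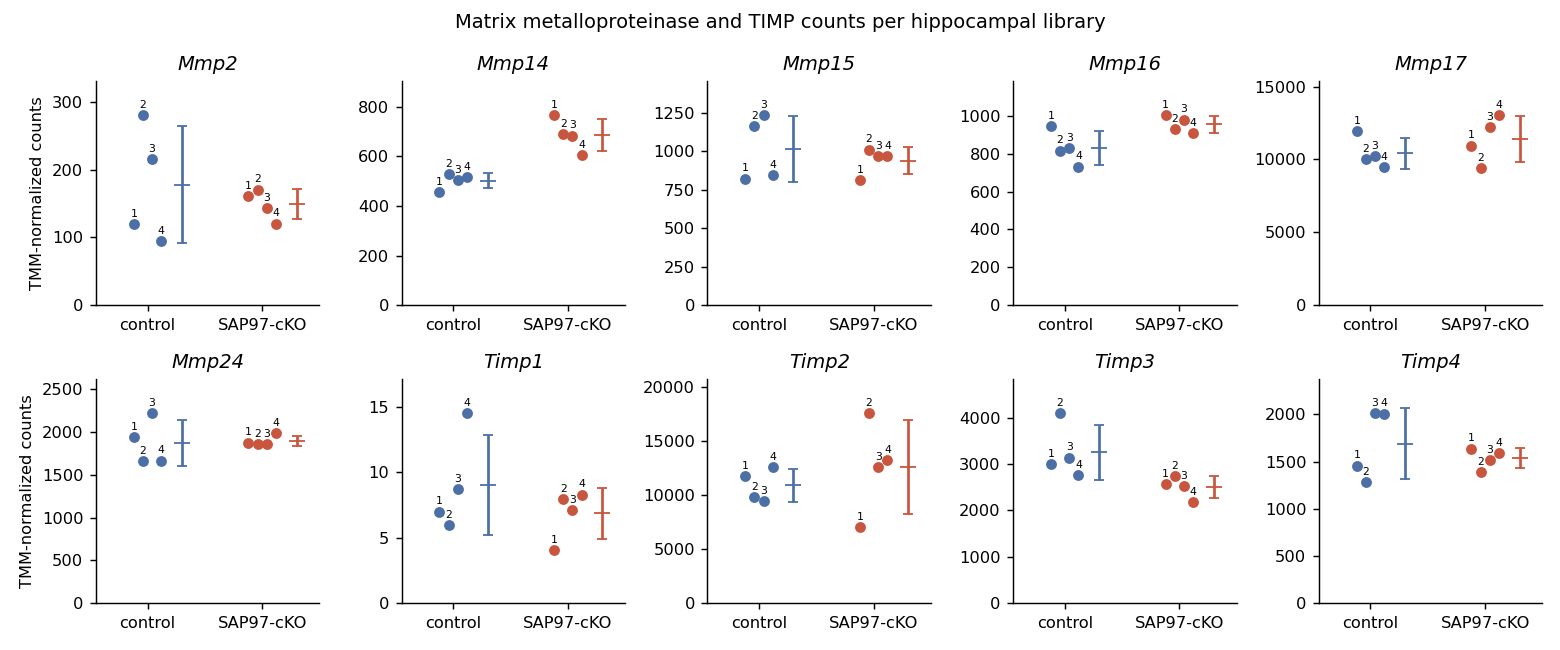
Normalized counts of the members by library, with controls and SAP97-cKO side by side in each panel, 1 point per library marked with its replicate number and a bar at the mean ± SD of each group. Mmp14 runs from 457 to 528 in controls and from 606 to 766 in SAP97-cKO, Timp3 runs from 2768 to 4104 and from 2178 to 2736, and the groups of the other members overlap.

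Mmp16 encodes a transmembrane enzyme close in sequence to the Mmp14 product. It had 944, 816, 828 and 732 normalized counts in controls and 1003, 929, 980 and 909 in SAP97-cKO. Control 1 lay within the knockout range and the other 3 controls lay below it. The log2 fold change was 0.20 (SE 0.086), which was not called except without control 1, where it was 0.27.

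Mmp17 had 11920, 10017, 10254 and 9463 normalized counts in controls and 10955, 9422, 12207 and 13036 in SAP97-cKO. The groups overlapped, with the lowest value of the series in SAP97-cKO 2, and the log2 fold change was 0.13 (SE 0.11), with 0.20 without control 1, 0.21 without SAP97-cKO 2 and 0.065 without SAP97-cKO 4. Mmp24 had 1938, 1665, 2225 and 1666 in controls and 1877, 1859, 1858 and 1985 in SAP97-cKO, with a log2 fold change of 0.016 (SE 0.095). The knockout libraries lay inside the range of the controls, and the direction for Mmp24 was not stable, since without scaling between libraries its log2 fold change was -0.031.

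Mmp15 had 821, 1163, 1232 and 843 normalized counts in controls and 814, 1009, 965 and 966 in SAP97-cKO. Controls 2 and 3 were the highest libraries and the log2 fold change was -0.11 (SE 0.14). Mmp2, whose product is the gelatinase activated through Mmp14 and TIMP2, had 120, 280, 216 and 94.1 in controls and 161, 170, 143 and 120 in SAP97-cKO. Mmp2 likewise was highest in controls 2 and 3, with a log2 fold change of -0.26 (SE 0.30) that was 0.053 without control 2.

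Controls 2 and 3 were also the libraries with the most choroid plexus RNA, with marker sums of 265126 and 148173 normalized counts, against 46770 and 6815 in controls 1 and 4. In SAP97-cKO the same sums were 22139, 90914, 52153 and 3933. All 14 choroid plexus markers entered the comparison and 14 of 14 had a log2 fold change below 0, but 0 were called by edgeR, by limma-voom or by DESeq2, and 0 had an unadjusted p under 0.05 in edgeR. With the mean log2 CPM of these markers as a covariate the log2 fold changes were 0.18 for Mmp2 and 0.0100 for Mmp15. The part of choroid plexus RNA in the values of Mmp2 and Mmp15 was not tested.

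**Figure D3:**
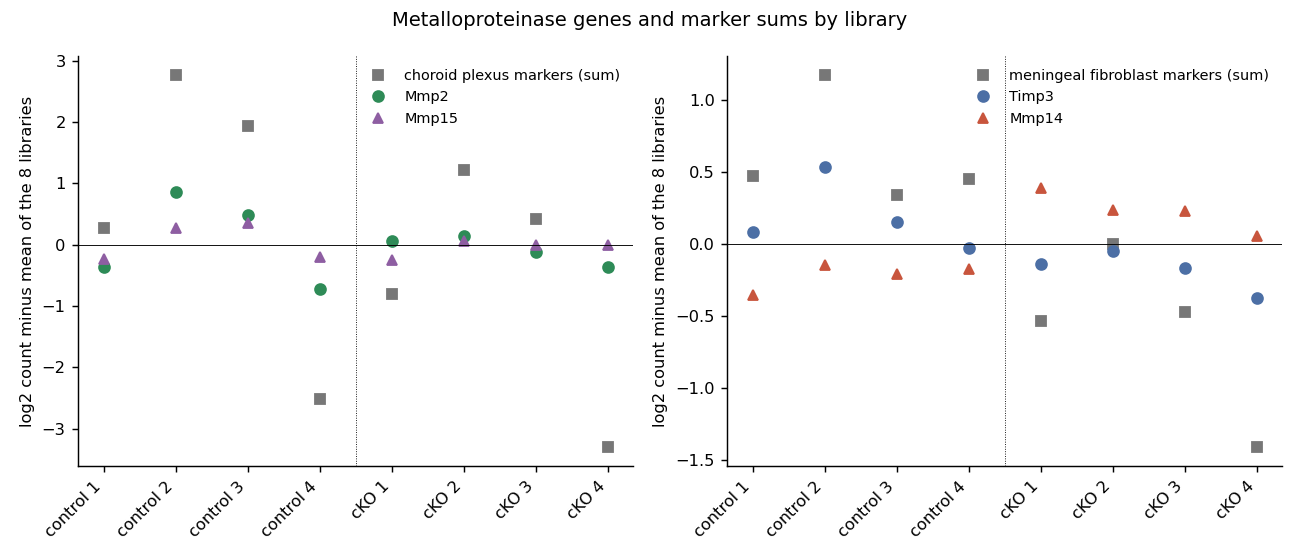
Deviation of each library from the mean of the 8 libraries on a log2 scale, for Mmp2 and Mmp15 beside the summed choroid plexus markers (left) and for Timp3 and Mmp14 beside the summed meningeal fibroblast markers (right). The choroid plexus sum spans 3933 to 265126 normalized counts and is highest in control 2, as Mmp2 is, while the fibroblast sum and Timp3 are both lowest in SAP97-cKO 4.

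Timp2, the inhibitor that also takes part in Mmp2 activation, had 11764, 9781, 9437 and 12571 normalized counts in controls and 7006, 17597, 12612 and 13242 in SAP97-cKO. The lowest and the highest library were both knockouts, and the coefficient of variation was 14.0% in controls and 34.5% in SAP97-cKO. The log2 fold change was 0.21 (SE 0.23), and it fell between 0.0089 and 0.42 when single libraries were left out. The library low in Timp2, SAP97-cKO 1, was also the lowest for the fibrous matrix gene Dcn (decorin, a small collagen-binding proteoglycan), with 610 normalized counts against 2300 to 2911 in the other 3 knockouts.

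Timp4, an inhibitor known from heart and brain, had 1458, 1279, 2016 and 2008 normalized counts in controls and 1638, 1391, 1518 and 1593 in SAP97-cKO. The knockout libraries lay inside the control range and the log2 fold change was -0.14 (SE 0.14). It was -0.25 without control 2, -0.032 without control 3 and -0.045 without control 4. Timp1 was near the limit of detection, with 7, 6, 9 and 15 deposited reads in controls and 4, 8, 7 and 8 in SAP97-cKO. The totals of 37 and 27 reads gave a ratio of knockout to control of 0.730 with an exact 95% interval of 0.427 to 1.23, which covers counting error only, so no difference in Timp1 was detected beyond counting error.

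Among the 9 members tested, 5 had a log2 fold change above 0 and 4 below, with a median of 0.016, beside a median of -0.012 over all genes tested, of which 52.8% were below 0. The 5 membrane-type genes ran from -0.11 for Mmp15 to 0.45 for Mmp14, and the 3 inhibitor genes tested ran from -0.38 for Timp3 to 0.21 for Timp2.

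Several members lie across other genes, and neither the labels nor the methods state whether the authors counted reads by strand. Timp1, Timp3 and Timp4 each lie inside a synapsin gene on the opposite strand (Syn1, Syn3 and Syn2), synapsins being proteins that coat synaptic vesicles. Exons of Timp3 and Syn3 share 1733 bases, or 21.3% of the exon length of Timp3, while Timp4 shares 90 bases with Syn2 and Timp1 shares 0 bases with Syn1. Syn3 had 252 to 396 normalized counts in controls and 368 to 404 in SAP97-cKO, with a log2 fold change of 0.17 (SE 0.13), opposite in sign to that of Timp3. Mmp24 shares 637 bases, 13.6% of its exon length, with BC029722 on the opposite strand, so reads there cannot be assigned without strand.

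On GRCm38, Mmp14 spans chr14:54431612-54445364 with 5960 bases of exon and Timp3 spans chr10:86300372-86349506 with 8144 bases. Mmp17 lies at chr5:129584169-129611099 and Timp2 at chr11:118301069-118355740. The members are spread over 9 chromosomes, and Mmp2 (chr8:92827291-92853420) and Mmp15 (chr8:95352268-95375080) are the pair that shares one.

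The other genes of the metalloproteinase system were read from the same fit by lists, each described by its counts. Of 15 other matrix metalloproteinase genes, 12 were in the table and 6 had enough reads to enter the comparison. Mmp28 and Mmp9, the most abundant of the others, had 96.5 ± 10.1 and 54.8 ± 10.9 normalized counts in controls (SD, n = 4). These counts are not corrected for exon length. On that scale every protease of the set had a higher control mean, the lowest being Mmp2 at 177 ± 86 (SD). The 94.1 of Mmp2 in control 4 lay within the control range of Mmp28. The log2 fold change was -0.42 (SE 0.20) for Mmp28 and -0.05 (SE 0.21) for Mmp9, a gelatinase known for its part in synaptic plasticity. All 6 had log2 fold changes below 0 with a median of -0.43, and 0 were called by edgeR, by limma-voom or by DESeq2, with 0 higher and 1 lower at an unadjusted edgeR p under 0.05. Over all genes tested 4.73% were higher and 7.01% lower at that p.

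Of 18 genes for activating proteases, inhibitors and other regulators, 17 entered the comparison and 0 were called by edgeR or by limma-voom, with 1 higher and 6 lower at an unadjusted edgeR p under 0.05, while DESeq2 called 1 higher and 2 lower. The most abundant were Spock2, a testican proteoglycan reported to modulate membrane-type enzymes, with a log2 fold change of 0.18 (SE 0.09), and Bsg (basigin, an inducer of metalloproteinases), with -0.19 (SE 0.08). The lowest value, picked out after the values were seen, was that of the broad protease inhibitor A2m at -1.38. A2m had 299, 743, 855 and 228 normalized counts in controls, with the high values in controls 2 and 3, and 161 to 222 in SAP97-cKO.

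Of 28 ADAM and ADAMTS genes, relatives of the matrix metalloproteinases that shed cell surface proteins or cut proteoglycans, 27 entered the comparison. The median log2 fold change was 0.15, with 18 above 0 and 9 below, and 0 were called by edgeR or by limma-voom. At an unadjusted edgeR p under 0.05, 4 were higher and 0 lower, and DESeq2 called 2 higher. Adam11 and Adam22, neuronal members without protease activity, were the most abundant and had log2 fold changes of 0.25 (SE 0.13) and 0.20 (SE 0.10).

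The substrates were split by kind. Of 33 collagens, small proteoglycans and other fibrous matrix genes, 6 were called lower and 0 higher by edgeR, and 32 of 33 had a log2 fold change below 0 with a median of -0.54. Called lower were Ogn (osteoglycin) at -1.32 (SE 0.21), Spp1 (osteopontin) at -1.92 (SE 0.31), Efemp1 (a fibulin) at -0.74 (SE 0.12), Col1a2 (a fibrillar collagen chain) at -1.01 (SE 0.18), Col3a1 at -1.22 and Mgp (matrix Gla protein), which had 919 ± 193 normalized counts in controls and 459 ± 103 in SAP97-cKO (SD, n = 4 each). The most abundant fibrous matrix genes were Sparc, at -0.35 (SE 0.16), and Dcn, at -0.01 (SE 0.42). The direction of Mmp14 against these genes is the reason the set was chosen and is not a finding, and the meningeal fibroblast sum, given above, was lower in the same libraries, whose part in these values was not tested. The 6 calls became 0 without control 2, without SAP97-cKO 3, without SAP97-cKO 4, or with the fibroblast or the mature oligodendrocyte covariate. In each of those fits 0 of all genes tested were called. The 6 calls became 17 without control 1 and 10 without SAP97-cKO 1. Calls over all genes tested were then 10.2% and 4.32%, against 0.295% in the main fit. Markers of mature oligodendrocytes summed to 229219 to 366105 normalized counts in controls. In SAP97-cKO 1 to 4 these markers summed to 320526, 189888, 194040 and 177108, so only SAP97-cKO 1 lay within the control range. All 12 had log2 fold changes below 0 with a median of -0.49, 0 were called by edgeR or by limma-voom, 8 were lower at an unadjusted edgeR p under 0.05 and DESeq2 called 5 lower. Their part in the values of the fibrous matrix genes was not tested.

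Of 20 basement membrane genes, 17 had log2 fold changes below 0 with a median of -0.40, and 0 were called by edgeR or by limma-voom, while 1 was higher and 3 were lower at an unadjusted edgeR p under 0.05 and DESeq2 called 1 lower. The most abundant were Agrn (agrin, a proteoglycan of synapses and vessel walls), at 0.28 (SE 0.11), and the laminin gene Lamb1, at 0.05 (SE 0.18). Of 12 lecticans and other genes of the neural matrix around neurons, 10 had log2 fold changes above 0 with a median of 0.22. Again 0 were called by edgeR or by limma-voom, with 2 higher and 1 lower at an unadjusted edgeR p under 0.05, and DESeq2 called 2 higher. Tnr (tenascin-R) and Hapln4, a link protein of perineuronal nets, were the most abundant, with 0.31 (SE 0.16) and 0.26 (SE 0.17).

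Of 8 genes for cell surface proteins cut by metalloproteinases, 5 had log2 fold changes above 0 with a median of 0.094, and 0 were called by edgeR or by limma-voom, with 2 higher and 1 lower at an unadjusted edgeR p under 0.05, while DESeq2 called 1 in each direction. App, the amyloid precursor gene, and Lrp1, an endocytic receptor that Mmp14 can shed and that also clears metalloproteinases, were the most abundant, with 0.10 (SE 0.08) and 0.28 (SE 0.16).

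**Figure D4:**
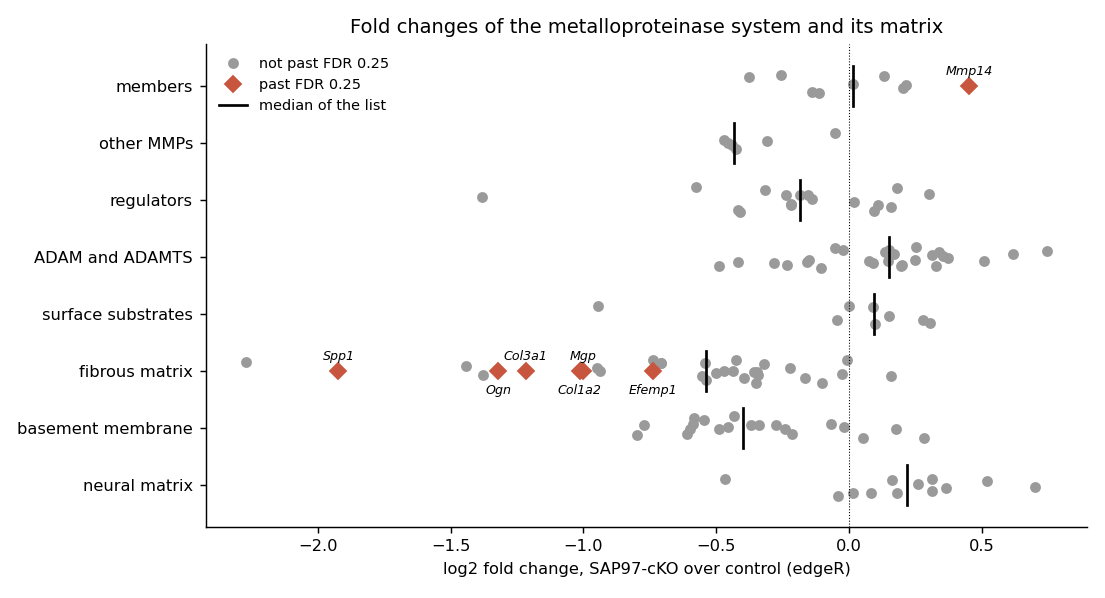
Log2 fold changes of SAP97-cKO over control from the edgeR fit for the members and the lists of the metalloproteinase system, with 1 point per gene tested, diamonds for genes past FDR 0.25 and a bar at the median of each list. The medians run from -0.54 for fibrous matrix to 0.22 for neural matrix, and the diamonds are Mmp14 at 0.45 and 6 fibrous matrix genes from Spp1 at -1.92 to Efemp1 at -0.74.

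The genes whose log2 CPM values were most like Mmp14 over the 8 libraries were Gm43034 (Pearson r 0.969, Spearman rho 0.976), Vps37b (0.954 and 0.857), Tcea2 (0.930 and 0.929), A930024N18Rik (0.928 and 0.810) and Apba1 (0.924 and 0.905). These values share the split between genotypes. After the mean of each genotype was subtracted, the genes most like Mmp14 were Zfp748 (Pearson r 0.985, Spearman rho 0.976), Sept1 (0.983 and 0.976), Cyp39a1 (0.974 and 0.881), 2310015A10Rik (0.972 and 0.929) and Oxsr1 (0.970 and 0.952), so none of the 5 genes was on both lists. They were the top 5 of 16251 genes by each measure over 8 libraries and are given as a description.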

How the data were processed

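The study sequenced hippocampal RNA of 8 male mice, 4 per genotype. Per the labels and its methods, the authors aligned reads to GRCm38.p5 (mm10) with STAR 2.5.3a, and with PORT removed ribosomal and mitochondrial reads, resampled the rest to a common depth and counted them per gene. The deposited values are whole-number read counts per gene, with totals of 37388177 to 37426572. The deposited table also holds the log2 fold changes, p-values and q-values of the authors' own limma-voom comparison, which were not used. No strand setting is stated.

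Genes were kept by filterByExpr (at least 10 counts in a library of median size and 15 in total), which left 16251 of 25834, and were fitted with edgeR 4.0.16 (R 4.3.3) by quasi-likelihood with TMM scaling and genotype as the only term. P-values were adjusted by Benjamini-Hochberg over all genes, at the FDR of 0.25 that the study used for RNA-seq. The alternatives were limma-voom (limma 3.58.1), DESeq2 1.42.0, other scalings and filters, an FDR of 0.05, marker covariates, a replicate block and leaving out each library. Each marker covariate was the mean log2 CPM of the markers of that list, centred over the libraries. Exon lengths and positions came from a GRCm38 annotation, in which 25696 of 25834 gene identifiers were found, and promoter sequences from RefSeq on GRCm38.p6. No library repeated another (chi-square per gene between any 2 libraries 9.68 to 72.6). On simulated counts for this comparison over 16251 genes, changes of 1.6-fold and 2-fold were found for 75.3% and 84.0% of 300 changed genes each. Recovery of smaller changes, such as the 1.37-fold of Mmp14, was not tested. In the deposited counts, leaving out single libraries gave calls for 0% to 10.2% of genes. Whether the recovery percentages hold for those counts was not tested. P-values of the genotype comparison measure the spread between the 4 mice per group. Those of the sign-flip test of levels measure the spread of within-library differences over the 8 mice of both groups.

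The members and all gene lists were chosen with earlier results of these data known. Genes named were the members, up to 4 called genes and the 2 most abundant of each list, Dlg1 as the check of the labels, and the 5 genes most like Mmp14 by Pearson r before and after subtraction of group means. Genes given beside them (Col3a1, Mgp, A2m, Syn3 and BC029722) were chosen after their values were seen.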

Additional observations from a re-analysis of the deposited data

Results flagged for a closer look

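Mmp24 in SAP97-cKO 4 lay apart from the other knockout libraries, with 1985 normalized counts against 1858 to 1877 in the other 3. Its gap to the nearest library was 0.853 of the range of the group, above Dixon's 95% critical value for 4 samples. Of 20 groups of 4 checked in this way, chance alone marks about 5%.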

How the results depend on the processing

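Calls over all genes are given as percent of the genes tested. Against 0.295% of genes (2 higher, 46 lower), 1 member called and 6 fibrous matrix genes called lower, DESeq2 called 6.36% (445 higher, 588 lower), 2 and 18, and an FDR of 0.05 called 0%, 0 and 0 (1907 genes had an unadjusted edgeR p under 0.05). Without the filter on low counts 0.403% of genes (15 higher, 89 lower) and 10 fibrous matrix genes were called. Without scaling, which moved the median of all genes to -0.058, 0.585% of genes and 0 members were called and Mmp14 was 0.41. A covariate for meningeal fibroblasts gave 0%, 0 and 0 (629 genes at an unadjusted p under 0.05) and 0.62 for Mmp14, one for mature oligodendrocytes gave 0%, 0 and 0 (683) and 0.60, and one for choroid plexus gave 0.0985% of genes, 0 members and 0.48. Mmp14 was 0.45 and no longer called at an FDR of 0.05. The cause of these shifts was not tested. Leaving out single libraries gave 0% to 10.2% of genes, 0 to 3 members, 0 to 17 fibrous matrix genes and 0.40 to 0.51 for Mmp14. The highest counts came without control 1, and 0 genes were called without control 2, SAP97-cKO 3 or SAP97-cKO 4 (1403, 1259 and 1167 at an unadjusted p under 0.05).

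Mmp14, Mmp16, Timp3 and Timp4 kept their direction in every alternative run, but not their size. Timp3 ran from -0.45 to -0.25 over single libraries left out and was -0.0024 with the fibroblast covariate and -0.25 with the choroid plexus covariate. Timp4 ran from -0.25 to -0.032 and was -0.50 and -0.029 with the fibroblast and oligodendrocyte covariates. Mmp2 turned to 0.20, 0.18 and 0.0022 with the fibroblast, choroid plexus and oligodendrocyte covariates, and ran from -0.46 to 0.053 over single libraries left out. Mmp15 turned to 0.0100 with the choroid plexus covariate and ran from -0.20 to 0.0080. Mmp17 ran from 0.065 to 0.21 and was -0.17 and -0.0023 with the fibroblast and oligodendrocyte covariates, and Timp2 was -0.24 with the latter. Mmp24 was -0.031 without scaling, -0.23 and -0.055 with the fibroblast and oligodendrocyte covariates, and -0.036 to 0.12 over single libraries left out.

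The labels number the replicates of both groups but do not say whether equal numbers mark pairs. Deviations of same-numbered libraries correlated at -0.062, 0.20, 0.090 and 0.26, and 5 of 8 libraries correlated best with their own number. Choroid plexus sums fell in the same order of replicates in both groups, from 2 and 3 to 1 and 4. The main fit has no block, and whether same-numbered libraries belong together was not settled. With a replicate block 1.58% of genes (22 higher, 234 lower), 2 members (1 higher, 1 lower) and 14 fibrous matrix genes were called. Depth limits Timp1, with 4 to 15 reads per library.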
